A study of Mus musculus with 15 samples.

Results

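The 10 genes described here belong to the major histocompatibility complex (MHC) class II presentation pathway and were measured in mouse dendritic cells. They were Ciita, Cd74, H2-Aa, H2-Ab1, H2-Eb1, H2-DMa, H2-Oa, H2-Ob, Marchf1 and Lgmn, and they made up 10 of the 18194 genes that the arrays measured through probe sets with exactly 1 gene symbol. The choice was by name: 20 of 34958 such probe sets carried 1 of these symbols, and where a gene had several, the one brightest on average over the 15 arrays stood for it. All 10 genes passed the filter on dim signals, which kept 13629 genes for testing.

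RNA of sorted XCR1+ dendritic cells from thymus and spleen was measured on Affymetrix mouse arrays, in 5 groups of 3 arrays. XCR1+ dendritic cells are the conventional dendritic cells known for presenting antigen of other cells to T cells. Every group was gated as CD11c+ CD317- CD172a-; immature cells were CD117+ CCR7- and mature cells CD117- CCR7+, and XCR1 itself was not among the gates given. The study asked how maturation without an infection (homeostatic maturation) in the thymus and in the spleen compares with maturation under a Toll-like receptor stimulus. Thymus CCR7-, thymus CCR7+, spleen CCR7- and spleen CCR7+ cells came from untreated mice. The last group was spleen CCR7+ cells of mice injected intraperitoneally with 10 µg polyI:C, a mimic of double-stranded RNA that Toll-like receptor 3 senses, with organs taken 18 h later. No CCR7- cells of treated mice were included, so this group was compared with CCR7- cells of untreated spleen. The labels do not state strain, genotype, age, sex or pooling of the mice. Nor do they say whether the 3 arrays of a group came from separate mice, so p-values measure only the spread between these samples, which may be technical.

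MHC class II molecules are pairs of an alpha and a beta chain that show peptides from endosomes to CD4+ T cells. The chains fold on the invariant chain (Cd74), proteases in the endosome trim it and the antigen, and H2-DM then exchanges its last fragment for peptide, which H2-O restrains. CIITA, recruited by factors at the X and Y boxes of class II promoters, switches the group on, and dendritic cells are known to stop this transcription and to stabilise surface class II when they mature.

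Class II promoters carry an X box and a Y box, and the members' promoters were searched for their letters. RefSeq windows of 250 bases before to 50 bases after a start site (build GRCm38.p6) were searched for 7 of the 10 genes, as 11 windows. No window of Ciita, Cd74 or H2-Ab1 was searched. A chromosome was left out of the members' windows but kept in the windows of all genes. Searched on both strands, the Y box core ATTGG occurred in 8 of the 11 windows and in 37.4% of all 32851 windows. The longer Y box CTGATTGG, which contains that core, occurred in 3 of 11 and in 4.10% of all. ACNGATG, a core of the X box, occurred in 3 of 11 and in 9.85% of all. GCAAC, letters of the part of the X box that the factor RFX binds, was added to the search after the windows had been read; it occurred in 7 of 11 windows and in 35.2% of all. GCAAC followed on the same strand by ATTGG at a gap of 10 to 30 bases occurred in 4 of 11 member windows and in 1.03% of all windows. The same search with ACNGATG in place of GCAAC gave 1 of 11, the window of H2-Eb1, and 0.158% of all. Neither these pairs nor the gap were among the letters planned for the search. Because GCAAC was added after the windows had been read, its shares among them cannot test whether it is more frequent there. The 4 stretches with GCAAC and ATTGG in this order are printed. Only the H2-Eb1 stretch also holds ACNGATG, the planned X box core. They lie upstream of the start sites of H2-Oa (chr17:34092293-34092350, + strand), H2-Ob (chr17:34238808-34238862, + strand), H2-Aa (chr17:34287857-34287914, - strand) and H2-Eb1 (chr17:34305766-34305822, + strand). Capitals mark GCAAC and ATTGG, and each is written 5′ to 3′ along its gene's strand.
H2-Oa: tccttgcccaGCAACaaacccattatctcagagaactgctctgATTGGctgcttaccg
H2-Ob: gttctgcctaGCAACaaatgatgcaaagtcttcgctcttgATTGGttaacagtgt
H2-Aa: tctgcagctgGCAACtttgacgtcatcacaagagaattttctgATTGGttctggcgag
H2-Eb1: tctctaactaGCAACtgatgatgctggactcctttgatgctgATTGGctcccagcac
The gap between the capitals was 28 bases for H2-Oa, 25 for H2-Ob, 28 for H2-Aa and 27 for H2-Eb1. These are matches of letters, not measured binding sites.

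Levels are the deposited log2 values, and a change is a log2 fold change, the difference between the means of 2 groups; array medians lay between 4.86 and 4.996. A gene was called when its Benjamini-Hochberg adjusted p, over the 13629 genes, was under 0.05 in limma, a linear model with a pooled estimate of the spread, and every adjusted p below is from this test; for a gene's other probe sets it was adjusted over 29328 probe sets. The 3 untreated spleen CCR7+ arrays stood farther from each other than those of the other groups (root mean square difference from the other arrays of the group 0.467 to 0.567, against 0.261 to 0.428). The 12 genes of an XCR1+ dendritic cell marker list with a probe set had group means above the filter in every group. Their mean level ran from 11.05 to 11.20 on the thymus CCR7- arrays and from 11.51 to 11.65 on the spleen CCR7- arrays. It was lower in mature cells, with 8.27 to 8.52 in thymus, 9.51 to 10.55 in untreated spleen and 8.82 to 9.45 after polyI:C. Xcr1 itself averaged 11.40, 5.25, 11.58, 8.03 and 7.54 in these 5 groups in the order of their introduction, so in mature thymic cells the gene that names the cells was near the dim end of the scale. The part of this shift in the results was not tested. In such bulk samples fewer cells of a type and less RNA per cell cannot be told apart.

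In both tissues most of the class II genes were lower in mature than in immature cells, and Lgmn was higher. In thymus Ciita, H2-Ab1, H2-DMa, H2-Oa, H2-Ob and Marchf1 fell and Lgmn rose, so 6 of 10 were called lower and 1 higher. Of all genes tested 37.3% were called in thymic maturation, 20.4% lower and 16.8% higher. The median change of the 10 genes was -0.67, against -0.06 over all genes. In untreated spleen the same counts of 6 lower and 1 higher were found, for the genes just named. There 36.5% of all genes were called, 24.1% lower and 12.3% higher, and the medians were -0.88 and -0.03. After polyI:C Cd74 and H2-Eb1 were called as well, giving 8 lower and 1 higher. The background was 46.4%, with 28.0% lower and 18.4% higher, and the medians were -1.90 and 0.02. H2-Aa was called in none of the 3. The 3 arrays of the mature group did not overlap the 3 of the immature group for any of the 10 genes in thymus, untreated spleen or polyI:C spleen, where 50.4%, 43.0% and 57.2% of all genes showed no overlap. Lgmn was the 1 of the 10 that was higher. In thymus 21.9% of all genes were higher without overlap and 28.5% lower. The shares in untreated spleen were 15.9% higher and 27.0% lower. After polyI:C they were 25.5% and 31.7%. Thymic and untreated splenic maturation share no array, whereas both splenic maturation comparisons use the same 3 spleen CCR7- arrays, so their values are given side by side only. The comparison of polyI:C with untreated mature spleen shares arrays with both.

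**Figure D1:**
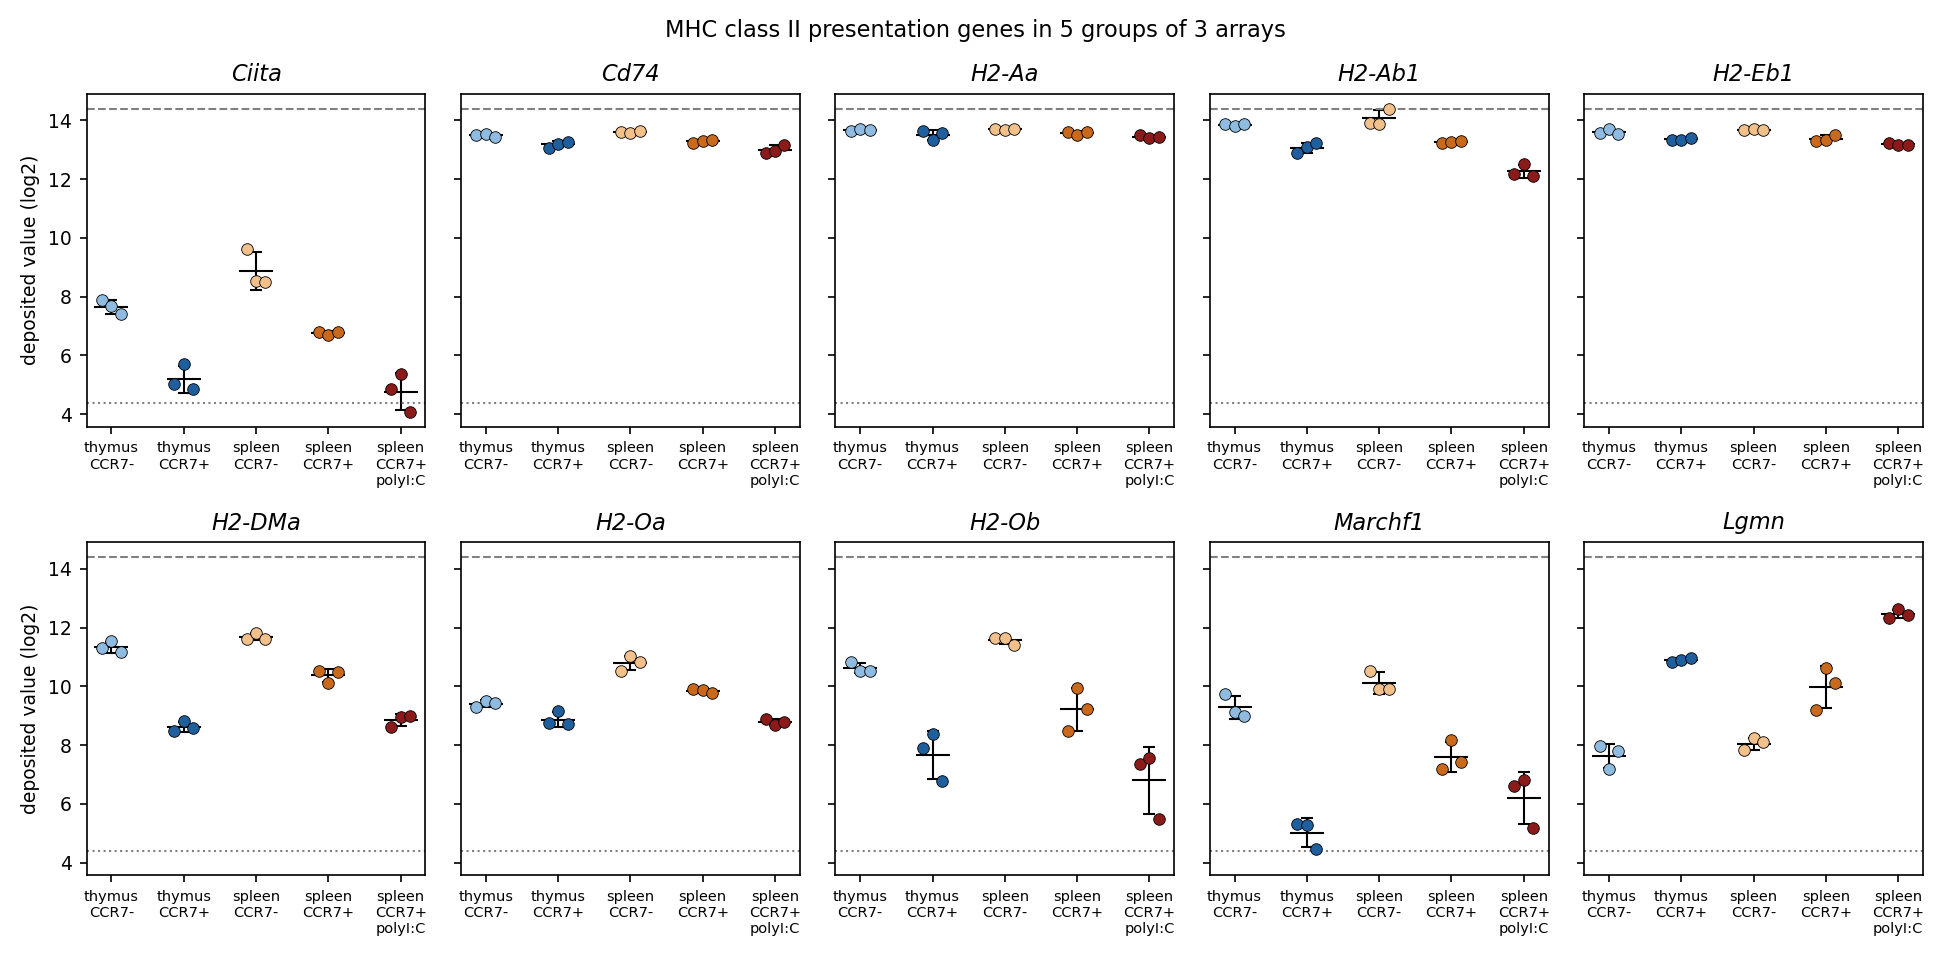
Deposited log2 value (vertical axis) of the 10 genes on each of the 15 arrays, by group; horizontal lines are group means and bars 1 SD (n = 3). The dotted line is the filter at 4.39 and the dashed line the highest value of the table, 14.40, below which Cd74, H2-Aa, H2-Ab1 and H2-Eb1 lie closely while the other 6 genes spread over the scale.

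Ciita encodes the coactivator that class II transcription depends on. Its values on the 3 arrays were 7.88, 7.67 and 7.40 in thymus CCR7- cells and 5.02, 5.70 and 4.84 in thymus CCR7+ cells. In spleen they were 9.62, 8.54 and 8.48 in CCR7- cells, 6.81, 6.68 and 6.80 in untreated CCR7+ cells, and 4.86, 5.36 and 4.09 after polyI:C. Every immature array was above every mature array of the same tissue, and every polyI:C array was below every untreated CCR7+ array of spleen. Ciita fell by 2.46 in thymus (SE 0.34, 5.51-fold, adjusted p = 4.4e-05) and fell by 2.12 in untreated spleen (4.34-fold, adjusted p = 0.00024). After polyI:C it was 17.3-fold below spleen CCR7- cells (change -4.11, adjusted p = 2.5e-07). The order of the group means was spleen CCR7-, thymus CCR7-, spleen CCR7+, thymus CCR7+ and polyI:C, and only the last 2 neighbours, whose ranges overlapped, did not pass the test (adjusted p = 0.39). The step between the immature groups was lost under 6 of 25 other settings. That from thymus CCR7- to spleen CCR7+ passed only narrowly (adjusted p rounded to 0.05). The lowest polyI:C array, at 4.09, was under the filter value of 4.39.

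Ciita had 3 probe sets. The next brightest, with a mean of 6.58, fell, with changes of -2.64, -2.22 and -2.94, in thymic, untreated splenic and polyI:C maturation (adjusted p = 1.22e-05, 8.71e-05 and 2.92e-06 over all probe sets). The dimmest, at 5.30, fell, with changes of -1.39 and -1.94, in spleen (adjusted p = 0.0113 and 0.000828), and its change in thymus was -1.01 (adjusted p = 0.054). All 3 were therefore lower in mature spleen in the test. They differed on the step from untreated to polyI:C mature cells. There the brightest fell by 1.99 (adjusted p = 0.00088), while the values of the others were -0.72 and -0.55, which did not pass (adjusted p = 0.133 and 0.4).

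Cd74, the invariant chain, blocks the peptide groove and guides new class II molecules to endosomes. It gave 13.49, 13.53 and 13.43 in thymus CCR7- cells and 13.07, 13.21 and 13.26 in thymus CCR7+ cells. In spleen it gave 13.59, 13.56 and 13.62 in CCR7- cells, 13.24, 13.31 and 13.32 in untreated CCR7+ cells and 12.89, 12.94 and 13.17 after polyI:C. Mature arrays lay below immature arrays in each tissue, within a band of less than 1 log2 unit. The change was -0.30 in thymus (SE 0.12, adjusted p = 0.054) and -0.30 in untreated spleen (adjusted p = 0.058), so neither passed. After polyI:C Cd74 fell by 0.58 (adjusted p = 0.00077). Both changes that missed the threshold passed it under several other settings, among them quantile normalisation repeated (-0.32 in each tissue, adjusted p = 0.034 and 0.0359); leaving out polyI:C replicate 3 also moved thymus past it (adjusted p = 0.048). No neighbours in the order of its group means differed in the test.

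H2-Aa and H2-Ab1 encode the alpha and the beta chain of I-A, and H2-Eb1 encodes the beta chain of I-E. H2-Aa held between 13.33 and 13.72 on all 15 arrays. Its values were 13.65, 13.69 and 13.67 in thymus CCR7- cells, 13.64, 13.33 and 13.55 in thymus CCR7+ cells, 13.71, 13.68 and 13.72 in spleen CCR7- cells, 13.61, 13.48 and 13.59 in untreated spleen CCR7+ cells, and 13.48, 13.40 and 13.43 after polyI:C. Mature arrays were lower by narrow margins, and no difference was called: -0.17 in thymus, -0.14 in untreated spleen and -0.26 after polyI:C (SE 0.11, adjusted p = 0.3, 0.37 and 0.071). With the mean of its 4 probe sets in place of the brightest one, all 3 were called (-0.37, -0.31 and -0.55, adjusted p = 0.0138, 0.0389 and 0.000788). On the brightest probe set the polyI:C change also passed with no filter, median centring or trended robust eBayes (adjusted p = 0.0465, 0.0281 and 0.0265).

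H2-Ab1 moved further. It gave 13.87, 13.82 and 13.87 in thymus CCR7- cells and 12.88, 13.09 and 13.21 in thymus CCR7+ cells. The spleen values were 13.92, 13.87 and 14.40 in CCR7- cells, 13.21, 13.27 and 13.30 in untreated CCR7+ cells and 12.17, 12.52 and 12.11 after polyI:C. All polyI:C arrays lay below all other arrays, and 1 spleen CCR7- array held the highest value of the whole table. H2-Ab1 fell by 0.79 in thymus (SE 0.16, adjusted p = 0.0011), fell by 0.80 in untreated spleen (adjusted p = 0.0012) and fell by 1.80 after polyI:C, a 3.48-fold drop (adjusted p = 5.2e-07). In the order of group means the 2 immature groups did not differ in the test (adjusted p = 0.61), nor did the 2 untreated mature groups (adjusted p = 0.46).

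H2-Eb1 gave 13.58, 13.69 and 13.54 in thymus CCR7- cells and 13.33, 13.33 and 13.40 in thymus CCR7+ cells. In spleen it gave 13.65, 13.69 and 13.66 in CCR7- cells, 13.30, 13.32 and 13.50 in untreated CCR7+ cells and 13.23, 13.16 and 13.16 after polyI:C. The 3 polyI:C arrays were the lowest of all. The change was -0.25 in thymus (SE 0.11, adjusted p = 0.089) and -0.29 in untreated spleen (adjusted p = 0.051), and both missed the threshold. The splenic change passed under 6 of 25 other settings. Among them were repeated quantile normalisation (-0.33, adjusted p = 0.0312) and leaving out spleen CCR7+ replicate 3 (-0.36, adjusted p = 0.0371). The thymic change passed under 2 of 25. A change was called after polyI:C, where H2-Eb1 fell by 0.48 (adjusted p = 0.0021).

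Of the 10 genes 4 were read at the top of the measured range. Cd74, H2-Aa, H2-Ab1 and H2-Eb1 had means over the 15 arrays of 13.31, 13.58, 13.30 and 13.44, above 99.7%, 99.9%, 99.7% and 99.8% of all probe set values, where the 99th percentile was 12.46 and the highest value 14.40. Each array's own highest value lay between 14.24 and 14.40. Over the 205 tested genes above the 99th percentile the median size of change was 0.23 in thymic maturation, against 0.36 over all genes. It was 0.22 against 0.36 in untreated splenic and 0.36 against 0.46 in polyI:C maturation. The part of the array's upper limit in these values was not tested.

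Dimmer probe sets of the same genes did not all give the same size of change. The 2 other probe sets of H2-Ab1, with means of 10.59 and 10.53, fell in all 3 comparisons. In thymic maturation they changed by -1.96 and -2.14. The untreated splenic changes were -2.05 and -2.24, and those after polyI:C -3.38 and -3.77. All 6 of these passed (adjusted p at most 0.000859), beside -0.79, -0.80 and -1.80 for the probe set that represents the gene. H2-Aa had 3 others. One with a mean of 12.67 fell, with changes of -0.69, -0.85 and -1.18, in the 3 comparisons (adjusted p = 0.0134, 0.00407 and 0.000214). The other 2, with means of 13.14 and 11.12, were not called in any of them, and their changes ran from -0.53 to -0.10. The letters _s_at, _x_at and _a_at in the names of 3 H2-Ab1 and 4 H2-Aa probe sets mark probes that can match more than 1 transcript. More than 1 transcript may therefore share their signal. The probe sets that stand for Cd74 and Ciita carry _a_at as well.

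**Figure D2:**
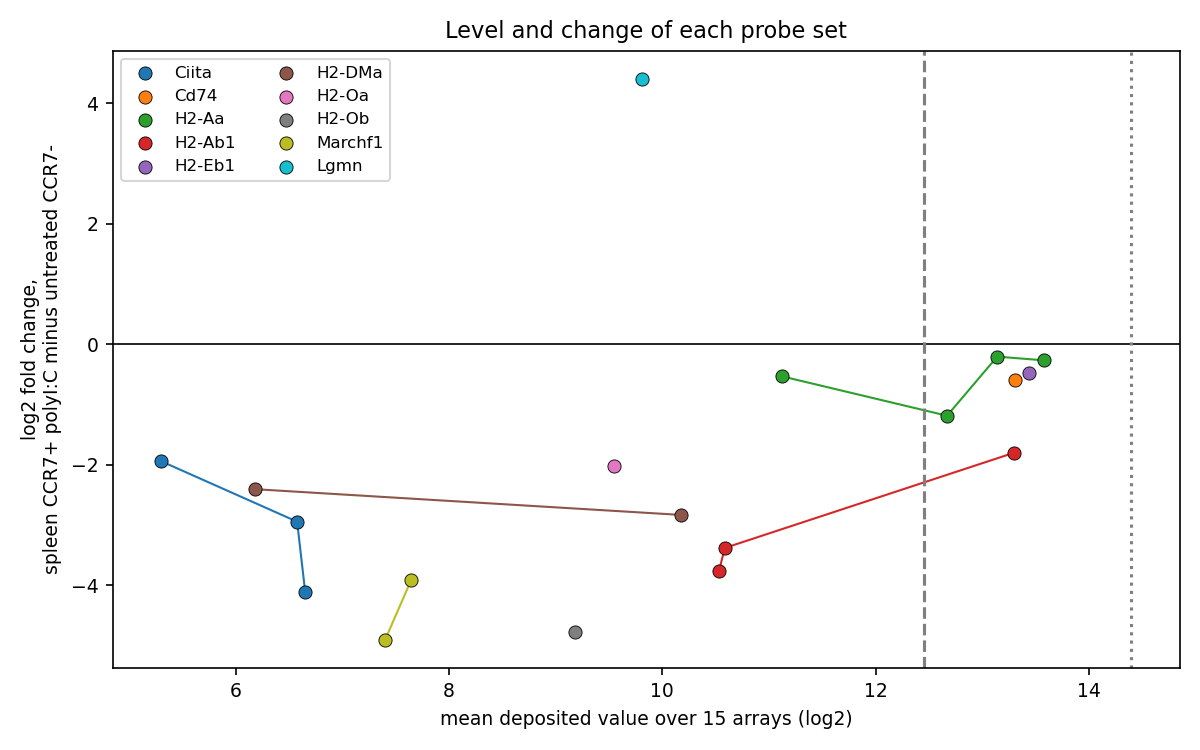
Mean deposited log2 value over 15 arrays (horizontal axis) against the log2 fold change from spleen CCR7- to polyI:C spleen CCR7+ cells (vertical axis) for each probe set of the 10 genes above the filter; lines join probe sets of 1 gene. The dashed line is the 99th percentile of the table, 12.46, and the dotted line its highest value, 14.40; the H2-Ab1 probe set at 13.30 changed by -1.80 and those at 10.59 and 10.53 by -3.38 and -3.77.

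H2-DMa encodes the alpha chain of H2-DM, the catalyst of peptide exchange. Its values were 11.29, 11.53 and 11.16 in thymus CCR7- cells and 8.48, 8.82 and 8.57 in thymus CCR7+ cells. In spleen they were 11.63, 11.82 and 11.60 in CCR7- cells, 10.54, 10.11 and 10.47 in untreated CCR7+ cells and 8.62, 8.96 and 8.98 after polyI:C. Mature thymic cells and polyI:C spleen cells overlapped at the low end, while untreated mature spleen stood between them and the immature groups. H2-DMa fell by 2.71 in thymus (SE 0.16, 6.52-fold, adjusted p = 2.1e-08), fell by 1.31 in untreated spleen (2.47-fold, adjusted p = 3.2e-05) and fell by 2.83 after polyI:C (7.11-fold, adjusted p = 8.1e-09). From high to low the group means ran spleen CCR7-, thymus CCR7-, spleen CCR7+, polyI:C and thymus CCR7+; neither the first pair of neighbours (adjusted p = 0.26) nor the last (adjusted p = 0.33) differed in the test. The thymic and the untreated splenic change of H2-DMa differed in the test. That difference, thymic minus splenic, was -1.40 (SE 0.23, adjusted p = 0.0032), in a test that called 3.18% of all genes, 1.39% lower and 1.79% higher. A second probe set of H2-DMa, with a mean of 6.18, gave -2.39, -1.15 and -2.40 in the 3 comparisons and a difference of -1.25 (adjusted p = 0.00558). In the same test of the difference 5 of 12 XCR1+ dendritic cell markers were lower and none higher (median -1.56). The part of this in the H2-DMa difference was not tested.

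H2-Oa and H2-Ob encode the chains of H2-O, which holds H2-DM in check and is known from B cells, thymic epithelium and some dendritic cells. H2-Oa gave 9.29, 9.52 and 9.42 in thymus CCR7- cells and 8.76, 9.15 and 8.71 in thymus CCR7+ cells. In spleen it gave 10.54, 11.03 and 10.83 in CCR7- cells, 9.92, 9.87 and 9.77 in untreated CCR7+ cells and 8.88, 8.68 and 8.80 after polyI:C. Even untreated mature spleen cells were above immature thymic cells, which was not so for any other gene of the set that was lower in mature cells. H2-Oa fell by 0.95 in untreated spleen (SE 0.16, adjusted p = 3e-04) and fell by 2.01 after polyI:C (4.03-fold, adjusted p = 1.4e-07). Its change of -0.54 in thymus (adjusted p = 0.013) was the smallest called in thymus, and the call ended without thymus CCR7- replicate 2 (-0.48, adjusted p = 0.0518), thymus CCR7+ replicate 1 (-0.48, adjusted p = 0.0528) or thymus CCR7+ replicate 3 (-0.45, adjusted p = 0.0642). From high to low the groups were spleen CCR7-, spleen CCR7+, thymus CCR7-, thymus CCR7+ and polyI:C, and only the last neighbours did not differ in the test (adjusted p = 0.72).

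H2-Ob gave 10.84, 10.52 and 10.53 in thymus CCR7- cells and 7.89, 8.37 and 6.78 in thymus CCR7+ cells. In spleen it gave 11.66, 11.63 and 11.42 in CCR7- cells, 8.49, 9.94 and 9.23 in untreated CCR7+ cells and 7.35, 7.57 and 5.50 after polyI:C. Immature arrays were tightly grouped and mature arrays scattered over more than 1 log2 unit in each group. H2-Ob fell by 2.95 in thymus (SE 0.50, 7.73-fold, adjusted p = 0.00029) and by 2.35 in untreated spleen (5.11-fold, adjusted p = 0.002). After polyI:C H2-Ob fell by 4.77 (27.2-fold, adjusted p = 2.6e-06). This was the largest polyI:C fall among the probe sets that stand for the 10 genes, and a second Marchf1 probe set gave -4.90. A probe set annotated to both H2-Ob and Gm20506, which can be assigned to neither alone, gave smaller changes of -1.51, -1.23 and -2.30 (adjusted p = 3.18e-05, 0.000252 and 4.34e-07). The H2-Ob groups ran from spleen CCR7- through thymus CCR7-, spleen CCR7+ and thymus CCR7+ down to polyI:C, and of the 4 pairs of neighbours only thymus CCR7- and spleen CCR7+ differed in the test (adjusted p = 0.037). B cells are known to express H2-O. Of the 10 genes of a B cell marker list 9 had a probe set and 8 were tested. From CCR7- to untreated CCR7+ spleen cells 6 of these 8 rose, beside 12.3% of all genes, among them Cd79b (5.45 to 8.07) and Ms4a1 (9.27 to 10.82). Fcrla, the brightest of the list in spleen CCR7- cells, was not among the 6: it averaged 9.80 there, 9.06 in untreated CCR7+ cells (adjusted p = 0.29) and 5.75 after polyI:C (adjusted p = 1.5e-05), and 9.33 and 6.85 in thymus CCR7- and CCR7+ cells (adjusted p = 0.0015). The mean level of the B cell list was 5.50 to 5.95 in spleen CCR7- cells, 6.25 to 7.36 in untreated CCR7+ cells and 5.10 to 5.60 after polyI:C, and 6, 8 and 7 of the 9 genes had a group mean above the filter. Thymus gave 5.31 to 5.61 for CCR7- and 5.18 to 6.26 for CCR7+ cells. The part of these markers in the H2-O values was not tested.

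Marchf1 is the ubiquitin ligase that marks class II and CD86 for turnover in immature dendritic cells. It gave 9.74, 9.13 and 8.99 in thymus CCR7- cells and 5.32, 5.29 and 4.47 in thymus CCR7+ cells. In spleen it gave 10.53, 9.90 and 9.91 in CCR7- cells, 7.18, 8.17 and 7.42 in untreated CCR7+ cells and 6.61, 6.81 and 5.20 after polyI:C. Mature thymic cells were the lowest group and sat close to the dim end, although the lowest polyI:C array lay among them. Marchf1 fell by 4.26 in thymus (SE 0.40, 19.2-fold, adjusted p = 1.2e-06), the largest thymic change of the set. It fell by 2.52 in untreated spleen (5.74-fold, adjusted p = 0.00023) and fell by 3.91 after polyI:C (adjusted p = 2e-06). A second probe set, with a mean of 7.40, fell, with changes of -5.35, -2.68 and -4.90 (adjusted p = 7.29e-06, 0.00269 and 1.04e-05). It averaged 3.96 in thymus CCR7+ cells, under the filter value of 4.39, so the size of its thymic change is not firm. The immature groups of both tissues did not differ in the test (adjusted p = 0.29), while the other neighbours in the order of group means did. The last probe set, at a mean of 3.95, did not pass the filter.

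Lgmn, which encodes the asparagine endopeptidase legumain of endosomes and lysosomes, moved the other way. Its values were 7.95, 7.18 and 7.79 in thymus CCR7- cells and 10.83, 10.88 and 10.96 in thymus CCR7+ cells. In spleen they were 7.83, 8.23 and 8.10 in CCR7- cells, 9.21, 10.62 and 10.11 in untreated CCR7+ cells and 12.33, 12.62 and 12.44 after polyI:C. The immature groups of both tissues overlapped at the low end and the polyI:C arrays stood above all others. Lgmn rose by 3.25 in thymus (SE 0.28, 9.54-fold, adjusted p = 6.4e-07), by 1.93 in untreated spleen (3.80-fold, adjusted p = 0.00013) and by 4.41 after polyI:C (21.2-fold, adjusted p = 2.4e-08). The adjusted p for untreated spleen stayed under the threshold in all 25 other settings, with changes from 1.61 to 2.31. In the order of its group means, polyI:C, thymus CCR7+, spleen CCR7+, spleen CCR7- and thymus CCR7-, only the last neighbours did not pass (adjusted p = 0.55). The step from thymus CCR7+ to spleen CCR7+ passed narrowly (adjusted p = 0.0496) and was lost under 22 of 25 other settings. Macrophages are known to hold much legumain. Of 9 tested macrophage and monocyte markers 4 rose and 1 fell in thymus, 1 rose and 1 fell in untreated spleen, and 2 rose and 2 fell after polyI:C. Of all genes 16.8%, 12.3% and 18.4% rose and 20.4%, 24.1% and 28.0% fell in these comparisons. Their mean level was 5.9997 to 6.31 in thymus CCR7- and 6.05 to 6.61 in thymus CCR7+ cells. In spleen it was 6.18 to 7.07 in CCR7-, 6.41 to 7.01 in untreated CCR7+ and 5.99 to 7.05 in polyI:C cells. The group means of 8, 9, 8, 9 and 9 of the 9 were above the filter, in the order in which the groups were introduced, and their part in the Lgmn values was not tested.

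**Figure D3:**
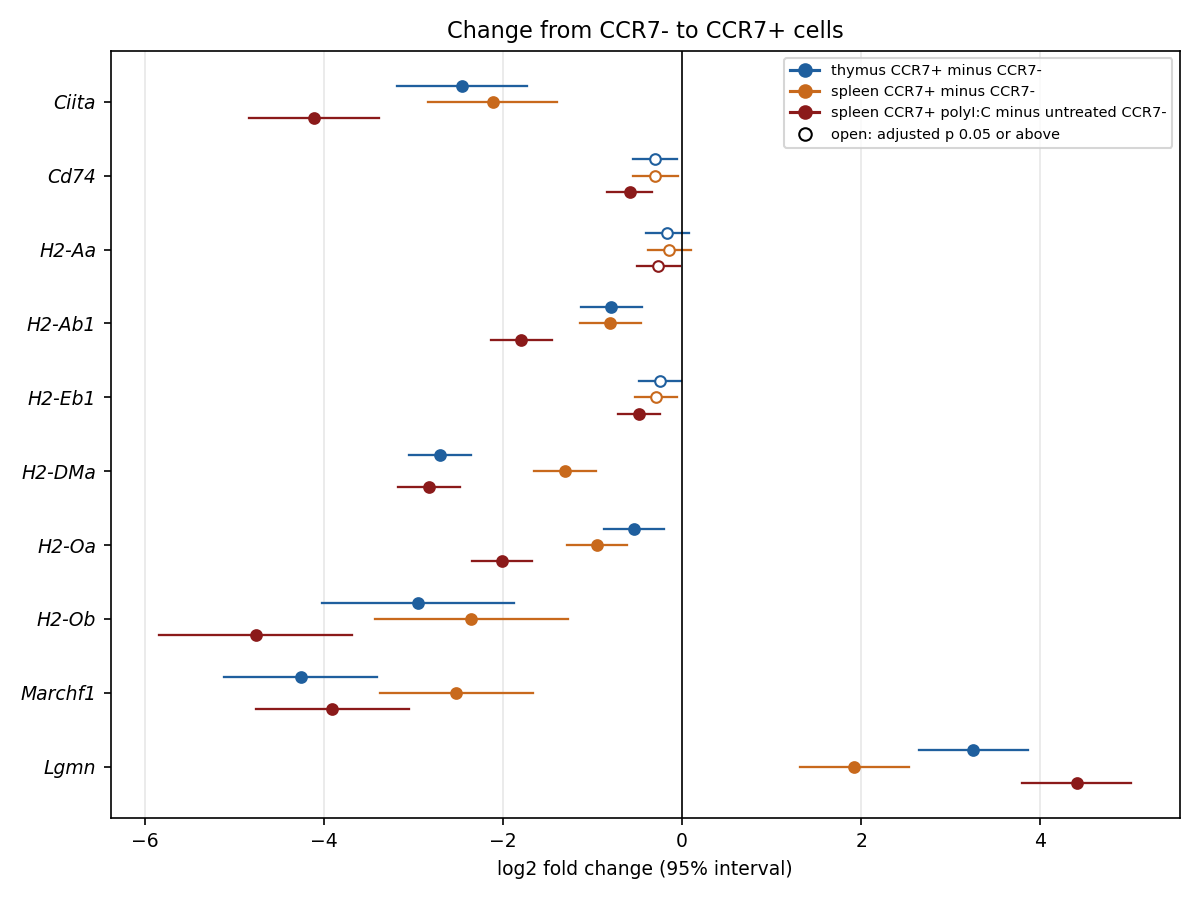
Log2 fold change from CCR7- to CCR7+ cells (horizontal axis) with its 95% interval from limma for each of the 10 genes, in thymus, untreated spleen and after polyI:C; the polyI:C cells are set against untreated CCR7- cells. Filled points had an adjusted p under 0.05; Lgmn lies to the right of 0 and the other 9 genes to the left in all 3 comparisons.

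Mature spleen cells of polyI:C-treated mice were compared directly with mature spleen cells of untreated mice. Of the 10 genes 6 were lower after polyI:C (Ciita, H2-Ab1, H2-DMa, H2-Oa, H2-Ob and Marchf1) and Lgmn was higher, while 18.2% of all genes were called, 9.66% lower and 8.58% higher. Their median change was -1.03, against 0.01 over all genes, and 9 of the 10 showed no overlap between the groups, 8 of them lower and Lgmn higher, as did 27.3% of all genes (13.8% lower and 13.5% higher); H2-Aa was the exception. The changes were -2.41 for H2-Ob (adjusted p = 0.0039), -1.99 for Ciita (adjusted p = 0.00088) and -1.52 for H2-DMa (adjusted p = 2.1e-05). H2-Oa fell by 1.06 (adjusted p = 0.00029) and H2-Ab1 fell by 0.99 (adjusted p = 6e-04). Lgmn rose by 2.48 (5.59-fold, adjusted p = 3.7e-05). For Cd74, H2-Aa and H2-Eb1 the changes were -0.29, -0.12 and -0.19 (adjusted p = 0.11, 0.54 and 0.28), with 95% intervals reaching from -0.53 to -0.04, from -0.37 to 0.12 and from -0.43 to 0.04. Marchf1 fell by 1.39 (adjusted p = 0.026), and this call was lost without untreated spleen CCR7+ replicate 2 (-1.10, adjusted p = 0.104) or without polyI:C replicate 3 (-0.88, adjusted p = 0.117). Ciita's call was lost when probe sets with the suffixes named above were left out (-0.72, adjusted p = 0.126). Marker lists moved with this comparison too. Of 8 tested B cell markers 4 were lower after polyI:C and none higher in limma (median -1.08). The mean level of that list was 6.25 to 7.36 in untreated CCR7+ and 5.10 to 5.60 in polyI:C cells. Of 12 XCR1+ dendritic cell markers 6 were lower and none higher (median -0.91). The part of these markers in the class II values was not tested.

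Immature cells of thymus and spleen were compared next. All 10 genes had a lower mean in thymus, and 2 were called, H2-Oa and Ciita, beside 8.16% of all genes (3.24% lower and 4.92% higher). Their median difference, thymus minus spleen, was -0.38, against 0.04 over all genes, and 7 of 10 showed no overlap, all 7 lower, as did 25.9% of all genes (10.8% lower and 15.1% higher). No member was called higher in the limma test, and 0 were higher at an unadjusted p under 0.05. H2-Oa was 2.62-fold lower in thymus (-1.39, SE 0.16, adjusted p = 3.9e-05). Ciita was 2.35-fold lower (-1.23, SE 0.34, adjusted p = 0.036), and its call ended without any 1 of the 3 thymus CCR7- arrays (-1.35, -1.24 and -1.11, adjusted p = 0.0611, 0.0934 and 0.143) or without spleen CCR7- replicate 1 (-0.86, adjusted p = 0.157). It also ended with median centring (-1.23, adjusted p = 0.0512). Neither of the other Ciita probe sets passed in this comparison (-0.63 and -0.79, adjusted p = 0.295 and 0.288). The other 8 differences ran from -0.94 for H2-Ob to -0.03 for H2-Aa. H2-Ob passed with the compared groups only (adjusted p = 0.00459). The replicate numbers paired the samples of this comparison: the residuals of every thymus array correlated with those of the spleen array of its number (0.52 to 0.57). With that number as a block within each maturity state, in a fit of the 4 untreated groups, Marchf1 was called as well (-0.83, adjusted p = 0.0248), Ciita stayed called (adjusted p = 0.00626) and H2-Ob did not pass (adjusted p = 0.059). That fit called 2146 of all genes, against 1112 without the block. The titles of all spleen samples, and of no thymus sample, carry a set name whose meaning is not given, so such a set and the tissue cannot be told apart. Markers of other cells moved with this comparison. The mean level of 9 thymic epithelial markers was 5.40 to 5.63 in thymus CCR7- and 4.62 to 4.76 in spleen CCR7- cells, with 7 and 6 of the 9 above the filter and Epcam at 10.44 and 6.41; of 7 tested, 2 were higher in thymus and none lower in limma. The T cell markers gave 4.91 to 5.70 and 4.14 to 4.35, with 8 and 4 of 9 above the filter, and 2 of 8 were higher in thymus. Of 8 B cell markers and of 9 macrophage and monocyte markers tested, 1 each was lower in thymus and none higher. The part of these markers in the class II values was not tested.

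Mature cells of untreated mice were compared between the tissues in the same way. Ciita (-1.58, SE 0.34, adjusted p = 0.0071), H2-DMa (-1.75, SE 0.16, adjusted p = 8.4e-06), H2-Oa (-0.98, SE 0.16, adjusted p = 0.00081) and Marchf1 (-2.57, SE 0.40, adjusted p = 0.00067) were lower in thymus. These were 4 of 10, beside 3.47% of all genes called lower, 8.71% higher and 12.2% either way. The median was -0.59, against 0.04 over all genes, and 7 of 10 did not overlap, 6 of them lower and Lgmn higher, as did 26.2% of all genes (9.66% lower and 16.5% higher). H2-Ob differed by -1.54 without passing (adjusted p = 0.061), and it passed under 5 of 25 other settings, among them leaving out spleen CCR7+ replicate 1 (-1.91, adjusted p = 0.0351) or polyI:C replicate 3 (adjusted p = 0.0165). Lgmn was 0.92 higher in thymus (adjusted p = 0.0496), a call lost under 22 of 25 other settings; without spleen CCR7+ replicate 1, the lowest of its group, the difference was 0.53 (adjusted p = 0.167). The numbers paired these samples too (0.42 to 0.59), and in the fit with the block within maturity states H2-Ob was called (-1.54, adjusted p = 0.00583) and Lgmn stayed called (adjusted p = 0.0409), while 3501 of all genes were called, against 1660. The probe set shared by H2-Ob and Gm20506 gave -0.93 (adjusted p = 0.00694). Of the other Ciita probe sets, the next brightest passed (-1.04, adjusted p = 0.0436) and the dimmest did not (-0.41, adjusted p = 0.551). The thymic epithelial list gave 5.53 to 5.73 in thymus CCR7+ and 4.79 to 5.10 in spleen CCR7+ cells. T cell markers moved with this comparison: of 8 tested, 4 were higher in mature thymic than in mature splenic cells, and the mean level of the 9 listed genes with a probe set was 6.16 to 7.47 in thymus CCR7+ and 4.63 to 4.90 in spleen CCR7+ cells, with Rag1 at 9.12 in thymus CCR7+ cells and under the filter in all spleen groups. All 9 had a group mean above the filter in thymus CCR7+ cells and 6 had one in spleen CCR7+ cells. In thymus CCR7- cells that level was 4.91 to 5.70, and 5 of the 8 rose in thymic maturation, beside 16.8% of all genes. Of 8 tested B cell markers 2 were lower in mature thymus and none higher in limma (median -0.86). The mean level of that list was 5.18 to 6.26 in thymus CCR7+ and 6.25 to 7.36 in spleen CCR7+ cells. Of 12 XCR1+ dendritic cell markers 8 were lower in mature thymus and none higher (median -2.20). The part of all these markers in the class II values was not tested.

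Set against polyI:C-treated spleen, mature thymic cells were called different for 3 of the 10 genes. Ciita, H2-DMa, H2-Oa and H2-Ob gave 0.42, -0.23, 0.08 and 0.87, thymus minus spleen, and did not pass (adjusted p = 0.39, 0.33, 0.72 and 0.23), with 95% intervals of -0.30 to 1.14, -0.58 to 0.12, -0.25 to 0.42 and -0.20 to 1.95. H2-Ab1 was 0.79 higher in thymus (adjusted p = 0.0024) and Lgmn lower (-1.57, adjusted p = 0.0011). Marchf1 was lower (-1.18, adjusted p = 0.044), but the call was lost under 13 of 25 other settings, among them leaving out thymus CCR7+ replicate 3 (-0.90, adjusted p = 0.162), polyI:C replicate 1 (-0.98, adjusted p = 0.158) or polyI:C replicate 2 (-0.88, adjusted p = 0.144). In all, 2 of 10 were lower and 1 higher, with 24.1% of all genes called (7.40% lower and 16.7% higher), and 3 of 10 did not overlap (H2-Ab1 and H2-Eb1 higher, Lgmn lower), as did 42.1% of all genes (18.0% lower and 24.1% higher). The median difference was 0.13, against -0.01 over all genes. T cell markers were apart here as well, at 6.16 to 7.47 in thymus CCR7+ and 4.80 to 4.89 in polyI:C spleen cells, with 9 and 5 of 9 above the filter; 5 of 8 were higher in thymus and 1 lower. The thymic epithelial list gave 5.53 to 5.73 and 4.68 to 4.88. Their part was not tested.

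The difference between thymic and untreated splenic maturation was tested for every gene. Besides H2-DMa, the larger values were -1.74 for Marchf1 (SE 0.56, 95% interval -2.95 to -0.53, adjusted p = 0.12) and 1.33 for Lgmn (SE 0.40, 0.47 to 2.19, adjusted p = 0.098), and neither passed; Lgmn was the 1 gene higher at an unadjusted p under 0.05, and none was called higher in limma. Lgmn passed without spleen CCR7+ replicate 2 (1.65, adjusted p = 0.02) and Marchf1 without polyI:C replicate 3 (-1.74, adjusted p = 0.0457), an array that enters only the shared estimate of the spread. In the fit with the block within maturity states Marchf1 passed too (adjusted p = 0.00874), H2-DMa stayed called (adjusted p = 0.00696) and Lgmn did not pass (adjusted p = 0.0654); 1462 of all genes were called, against 433. For H2-Ab1 the difference was 0.01, with an interval of -0.47 to 0.49. Ciita, H2-Oa and H2-Ob gave -0.34, 0.41 and -0.60 (adjusted p = 0.78, 0.4 and 0.74). The median over the 10 genes was -0.01, against 0.00 over all genes. Marker lists moved with this test too. Of 12 XCR1+ dendritic cell markers 5 were lower and none higher in limma (median -1.56), beside 1.39% and 1.79% of all genes. Of 8 T cell markers 1 was higher and none lower (median 0.76), and of 7 thymic epithelial markers 1 was higher and 1 lower. The part of these markers in the class II values was not tested.

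Some genes outside the set followed a member closely over the 15 arrays, measured as the root mean square difference between 2 genes after each was centred on its own mean, in log2 units. The genes nearest to Ciita, whose own root mean square spread was 1.57, were Unc119 (0.37), Chn2 (0.40) and Sfxn1 (0.45). Next to H2-Ob (spread 1.87) were Itgal (0.31), an integrin chain of leukocytes, Ptpre (0.37) and Arhgap15 (0.39). Marchf1 (spread 1.94) had Unc119b (0.39), Gcsam (0.39) and Ptger2 (0.41), a prostaglandin E2 receptor. Lgmn (spread 1.82) had Cd274 (0.37), the ligand PD-L1, followed by Trim6 (0.39) and Rab26 (0.43). Cd274 rose by 3.95, 2.03 and 3.84 in thymic, untreated splenic and polyI:C maturation, beside 3.25, 1.93 and 4.41 for Lgmn. The 15 arrays share their groups, so any gene with like group means comes out near.

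The other genes of the pathway moved in both directions. In 3 lists of 35 genes 31 had a probe set and all 31 were tested. In thymic maturation 11 rose and 5 fell (median 0.16), in untreated splenic maturation 7 rose and 7 fell (median 0.14), and in polyI:C maturation 11 rose and 8 fell (median 0.33). The medians over all genes were -0.06, -0.03 and 0.02. In shares of the 31 genes these were 35.5%, 22.6% and 35.5% higher, beside 16.8%, 12.3% and 18.4% of all genes. The shares lower were 16.1%, 22.6% and 25.8%, beside 20.4%, 24.1% and 28.0% of all genes, so the falls were near or under the background. Between polyI:C and untreated mature spleen 3 were higher and 2 lower (9.68% and 6.45%, beside 8.58% and 9.66% of all genes), which is near the background. Between mature thymus and untreated mature spleen 6 were higher in thymus and none lower in the limma test, with 2 lower at an unadjusted p under 0.05, beside 8.71% of all genes higher and 3.47% lower. In the fit with the block within maturity states 10 were higher and 2 lower. Against polyI:C spleen 8 were higher in mature thymus and 2 lower, beside 16.7% and 7.40% of all genes.

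Among 12 tested regulators of class II transcription 5 rose and 2 fell in thymus, 3 rose and 3 fell in untreated spleen, and 5 rose and 3 fell after polyI:C. The shares that fell, 16.7%, 25.0% and 25.0%, stood beside 20.4%, 24.1% and 28.0% of all genes; those that rose, 41.7%, 25.0% and 41.7%, beside 16.8%, 12.3% and 18.4%. Rfxap, a subunit of the RFX complex that binds the X box, fell where Ciita did, with changes of -1.43, -1.23 and -2.21 (adjusted p = 0.00094, 0.0033 and 1.6e-05). Its means in thymus were 9.51 for CCR7- and 8.08 for CCR7+ cells; in spleen they were 9.53 for CCR7-, 8.30 for untreated CCR7+ and 7.32 for polyI:C cells. Rfxank and Rfx5, which encode other subunits of that complex, had higher means in mature cells. For Rfxank they were 5.79 and 7.01 in thymus CCR7- and CCR7+ cells. In spleen CCR7-, untreated CCR7+ and polyI:C cells they were 5.73, 6.36 and 6.41. Rfx5 averaged 9.76, 10.67, 9.98, 10.13 and 10.74 in the same order. Irf8, a factor that XCR1+ dendritic cells need and also a gene of the XCR1+ marker list, fell, with changes of -0.71, -1.06 and -1.34 (adjusted p = 0.0058, 0.00036 and 2.4e-05). Irf1, an interferon response factor that can act on a Ciita promoter, rose by 2.75, 1.86 and 2.18 (adjusted p = 5.1e-06, 0.00026 and 3.1e-05). Irf1 averaged 13.13, 12.95 and 13.27 in thymus CCR7+, spleen CCR7+ and polyI:C cells, above the 99th percentile of 12.46. So did Irf8 in thymus and spleen CCR7- cells (13.24 and 13.32). Prdm1, which encodes BLIMP1, a repressor of Ciita in plasma cells, lay under the filter of 4.39 on every CCR7- array (at most 4.24 in thymus and 3.90 in spleen) and every polyI:C array (at most 4.27). It is counted above as higher in all 3 comparisons, but only its levels in untreated CCR7+ cells, 6.63 to 6.93 in thymus and 4.25 to 5.35 in spleen, reached above the filter, so no size of change is given. Irf4 rose by 3.23 in thymus and by 3.23 after polyI:C (adjusted p = 0.00024 and 0.00018).

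Of 10 tested genes for antigen processing and peptide loading 4 rose and none fell in thymus, 3 rose and none fell in untreated spleen, and 4 rose and 1 fell after polyI:C. Over all genes 16.8%, 12.3% and 18.4% rose. In limma 1 of the 10 was lower at an unadjusted p under 0.05 in each of the first 2 comparisons. That was H2-DMb2, a beta chain gene of H2-DM, which gave -1.04 in thymus and -0.89 in untreated spleen (adjusted p = 0.059 and 0.11). It fell by 1.41 after polyI:C (adjusted p = 0.01). Both probe sets annotated to H2-DMb1 and H2-DMb2 together, which count for neither gene, were called lower in all 3 comparisons. Their changes were -3.27 and -3.04 in thymus (adjusted p = 9.81e-06 and 7.21e-05) and -2.07 and -2.20 in untreated spleen (adjusted p = 0.00064 and 0.00124). After polyI:C they were -4.22 and -3.59 (adjusted p = 6.06e-07 and 1.05e-05). H2-Eb2, a second beta chain gene beside H2-Eb1, rose by 1.82, 2.80 and 2.01 (adjusted p = 1.5e-05, 4.2e-07 and 3.9e-06). Its means in thymus were 8.51 for CCR7- and 10.33 for CCR7+ cells; in spleen they were 7.87 for CCR7-, 10.67 for untreated CCR7+ and 9.88 for polyI:C cells. Sppl2a, the protease that clears the invariant chain stub from the membrane, rose by 0.79 in untreated spleen and by 1.58 after polyI:C (adjusted p = 0.0013 and 1.6e-06). Ctsb, a cathepsin, rose by 1.20 in thymus and by 0.60 after polyI:C (adjusted p = 6.4e-05 and 0.0095), and its thymic change was larger than the untreated splenic one by 1.05 (adjusted p = 0.029). Ifi30, the thiol reductase GILT, rose by 0.76 in untreated spleen and by 0.76 after polyI:C (adjusted p = 0.00044 and 0.00024). Its means there, 12.64 in CCR7-, 13.40 in untreated CCR7+ and 13.40 in polyI:C cells, all lay above the 99th percentile of 12.46. The part of the upper limit in these sizes was not tested.

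Traffic and turnover genes gave 2 higher and 3 lower of 9 in thymus, 1 higher and 4 lower in untreated spleen, and 2 higher and 4 lower after polyI:C. The shares higher were 22.2%, 11.1% and 22.2%, near 16.8%, 12.3% and 18.4% of all genes, and those lower 33.3%, 44.4% and 44.4%, beside 20.4%, 24.1% and 28.0%. Cd83, which opposes MARCH1 at the membrane, rose by 1.49, 0.99 and 0.99 (adjusted p = 9.2e-06, 0.00045 and 0.00024) where Marchf1 fell. The tetraspanin Cd82 fell by 1.95 in untreated spleen and fell by 2.68 after polyI:C (adjusted p = 0.00026 and 7.1e-06). Another tetraspanin, Cd9, fell, with changes of -1.30, -0.69 and -1.14 (adjusted p = 0.00028, 0.024 and 0.00061). Ap1m1, a subunit of a clathrin adaptor, fell, with changes of -0.55, -0.91 and -0.86 (adjusted p = 0.013, 5e-04 and 0.00042). Cd86, the costimulatory ligand that MARCH1 also marks, fell by 0.47 in thymus and fell by 1.15 in untreated spleen (adjusted p = 0.036 and 1e-04), and was 1.43 higher in polyI:C than in untreated mature spleen (adjusted p = 3.9e-05).

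**Figure D4:**
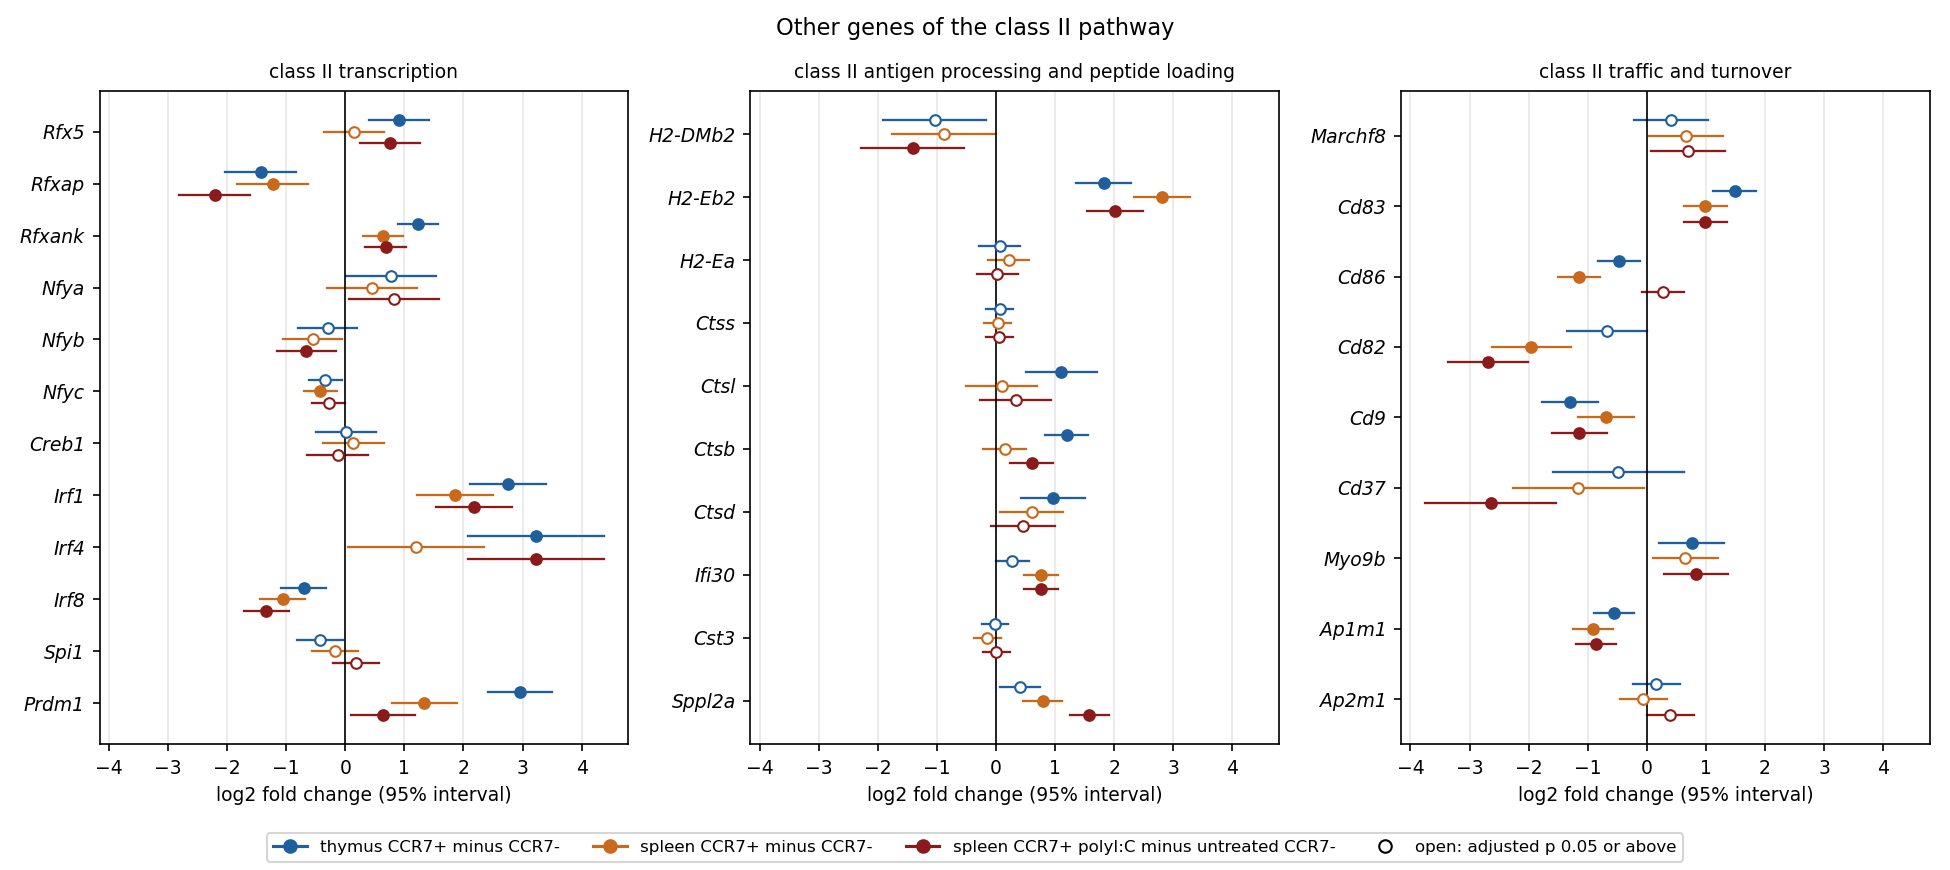
Log2 fold change from CCR7- to CCR7+ cells (horizontal axis) with its 95% interval from limma for 31 other genes of the class II pathway in 3 lists, in thymus, untreated spleen and after polyI:C, set against untreated CCR7- cells. Filled points had an adjusted p under 0.05; Irf1, Rfxank, H2-Eb2 and Cd83 are filled to the right of 0 in all 3 comparisons and Rfxap, Irf8, Cd9 and Ap1m1 to the left, while Prdm1 lay under the filter in all CCR7- and polyI:C arrays.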

How the data were processed

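The deposited values are on the log2 scale, for which the authors used RMA in affy, per the submitters' processing notes; versions and the arrays normalised together are not stated there. Per the labels, 40 ng of RNA per sample was amplified and labelled with biotin. RMA gives no detection call, and changes of probe sets near the background or the upper limit of the scanner can be understated. The number of arrays limits the precision.

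Of 45101 probe sets, 34958 carried 1 gene symbol in the platform annotation, 932 carried several and 9211 were unlisted and unnamed here. No gene was named from a probe set with several symbols. A gene was tested when its probe set exceeded the 40th percentile of all values (4.39) on at least 3 arrays. Group means were fitted to all 15 arrays with limma 3.58.1 in R 4.3.3 (10 residual degrees of freedom), and contrasts were tested with eBayes and Benjamini-Hochberg adjustment; single probe sets were tested in the same model over 29328 probe sets. The script was tested on simulated data. The highest correlation between 2 arrays was 0.992, and no arrays held identical values.

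The 10 genes and the gene lists were chosen with earlier results of these data known. The 10 genes are named in every comparison, of each pathway list up to 3 called rises and 3 called falls per maturation comparison, and for Ciita, H2-Ob, Marchf1 and Lgmn the 3 most similar tested genes. Alternatives were no filter, the mean or the most variable probe set of a gene, no _s_at, _x_at or _a_at probe sets, repeated quantile normalisation, centring on array medians, a trended robust eBayes, array weights, the replicate number as a block, a fit of only the groups compared, each array left out in turn, and, chosen after seeing the data, every other probe set of a gene. The titles number the replicates. Residuals of arrays of equal number correlated above 0.1 in every pair for thymus with spleen CCR7- cells (0.52 to 0.57) and for thymus with spleen CCR7+ cells (0.42 to 0.59), and in none of the other 8 pairs of groups did all 3 do so. The numbers were therefore taken to pair thymus with spleen within a maturity state; this comes from the data, not the labels. The fit with that block, on the 4 untreated groups (4 residual degrees of freedom), was added after seeing the data. Counts of settings leave out both alternatives chosen after seeing the data.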

Additional observations from a re-analysis of the deposited data

Results flagged for a closer look

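For H2-DMa the thymic change from CCR7- to CCR7+ cells differed from the untreated splenic change by -1.40 (limma, adjusted p = 0.0032), with 3 of 3 arrays lower in each mature group than in its immature group. The difference lay between -1.53 and -1.30 in all 25 other settings, with an adjusted p of at most 0.0123. It was not particular to H2-DMa: 5 of 12 XCR1+ dendritic cell markers were lower in this test (median -1.56). Their part was not tested. Groups of 3 arrays were too small for the search for single arrays far from their group.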

How the results depend on the processing

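No change of the 10 genes that was called turned its direction in any setting. Over settings other than leaving out an array, 727 results for single genes kept their side of the threshold, 32 gained a call and 17 lost one; leaving out arrays gave 1163, 6 and 31. The count of genes higher in mature thymus than in mature spleen went from 1 to 0 with no filter, the most variable probe set, no _s_at, _x_at or _a_at probe sets, repeated quantile normalisation, median centring, trended robust eBayes, array weights or the compared groups only. The replicate block over all 15 arrays also gave 0 there (Lgmn, 0.92, adjusted p = 0.051). The block moved 1 other single call, H2-Ob in the same comparison (-1.54, adjusted p = 0.0283). The count lower in mature thymus than in polyI:C spleen went from 2 to 1 with no filter, the most variable probe set, median centring or the compared groups only, and that lower in immature thymus from 2 to 1 without the suffixed probe sets or with median centring. The count higher in thymus than in polyI:C spleen went from 1 to 0 without the suffixed probe sets, and that for a larger thymic rise from 0 to 1 with array weights (Lgmn, adjusted p = 0.0484). With the replicate block within maturity states, the genes with a larger thymic fall went from 1 to 2 (Marchf1 joined), and the other pathway genes from 2 higher and 0 lower to 6 and 1; of the 10 genes it changed no call but those given above for Marchf1 and H2-Ob. The cause of these shifts was not tested. Leaving out 1 array gave 5 to 7 genes lower in thymic maturation, 6 to 7 in untreated splenic, 8 in polyI:C maturation and 5 to 6 for polyI:C against untreated mature spleen. It gave 1 to 2 lower for immature thymus, 0 to 1 higher and 4 to 5 lower for mature thymus against spleen, 1 to 2 lower against polyI:C spleen, and 0 to 1 higher and 1 to 2 lower for the difference between tissues. The count of other pathway genes higher in thymic maturation was 7 in place of 11 without the suffixed probe sets, and that lower was 8 in place of 5 with array weights. With the compared groups only, 3 in place of 6 were higher in mature thymus than in mature spleen. Over all genes, 1988 in place of 1112 were called between immature groups with array weights, and with the compared groups only 1081 in place of 2486 for polyI:C against untreated mature spleen and 802 in place of 1660 for mature thymus against spleen. Cd74, H2-Aa, H2-Ab1 and H2-Eb1 were read near the highest values of the table and some Ciita and Marchf1 arrays of mature cells near the filter; the part of this in their changes was not tested.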
